A study of Mus musculus with 10 samples.

Results

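Collagen genes were followed in RNA sequencing of cultured mouse neural tube explants, and 44 of the 42465 gene models in the table qualified: every protein-coding gene whose symbol has the form Col, a number, the letter a and a number. Explants were taken from embryos at embryonic day 9.5 and contained neural crest cells, the migratory cells that leave the neural tube. The 5 WT and 5 Ednrb-/- libraries are biological replicates by their labels, which do not say whether embryos were pooled, which strain was used or how the Ednrb allele was made. Both genotypes were grown for 4 days in DMEM-based medium that held 10% serum and 20 nM of EDN3, the endothelin that activates the receptor encoded by Ednrb. The series is concerned with what makes melanoblasts, which later become pigment cells, divide, and its design allows a comparison of Ednrb-/- with WT.

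Collagens are matrix proteins built of 3 chains wound into a helix, and each gene encodes 1 chain. Fibrillar collagens assemble into the striated fibrils of connective tissue, whereas network collagens form sheets, the best known being the collagen IV of basement membranes. FACIT collagens (fibril-associated collagens with interrupted helices) decorate fibrils, and transmembrane collagens sit in the plasma membrane with the helix outside the cell. In the embryo, neural crest cells migrate over such matrix, and smooth muscle and mesenchymal cells are known sources of it. The 44 genes comprised 11 fibrillar, 9 network, 9 FACIT and 4 transmembrane members, and 11 of other kinds (6 beaded filament genes of collagen VI, the anchoring fibril gene Col7a1, the multiplexins Col15a1 and Col18a1, and Col26a1 and Col28a1).

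Values are FPKM, read counts scaled to the length of the gene model and the depth of the library. Reads worked back from them came to between 13022266 and 19532570 per library. Ednrb itself held 43.8 to 60.7 FPKM in WT and 2.34 to 11.7 FPKM in Ednrb-/- libraries. Neuron markers (9 found of 10, of which 9 rose in limma) summed to 927 to 1268 FPKM in WT and 1569.96 to 1768 FPKM in Ednrb-/- libraries. The 7 crest and glia markers, of which 7 fell, summed to 65.5 to 153 FPKM in WT and 17.2 to 38.1 FPKM in Ednrb-/- libraries. Markers of neurons and of crest were thus detected in every library. Of all genes tested in limma, 13.0% fell and 6.53% rose.

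Of the tested collagen genes most were lower in the explants without the receptor, with members of the fibrillar, network and FACIT classes and of the other kinds among them. A gene was tested where it had at least 0.5 FPKM in at least 5 of the 10 libraries, which 29 of the 44 collagens and 15156 genes in all did. All of these entered one limma fit of genotype to log2(FPKM + 0.5) (adjusted by Benjamini-Hochberg, threshold 0.05), and rose and fell are written of genes past that threshold. Of the 29 tested collagens 19 fell, where 13.0% of all tested genes did. All 19 fell by at least 2-fold on this scale, which 6.57% of all tested genes did. None rose (0 at an unadjusted p under 0.05, and 0 by limma voom), where 6.53% of all tested genes rose. In 9 collagens every Ednrb-/- library lay below every WT library, against 8.44% of all tested genes, and in 0 every one lay above, against 4.78%. The median log2 difference was -1.72 over the 29 collagens and 0.0048 over all tested genes. The filter keeps a gene that is high in 1 genotype alone, so these counts describe the tested members and not the family.

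By class, 7 of 9 tested fibrillar genes fell, as did 5 of 6 network genes, 4 of 7 FACIT genes and 3 of 5 of the other kinds. Neither of the 2 tested transmembrane genes did (limma, 0 at an unadjusted p under 0.05 and 0 by limma voom). Whether the classes differ from each other was not tested. Leaving out 1 library at a time gave 17 to 20 collagens lower and 0 higher. Under quantile normalization 19 were lower and 0 higher, while the calls over all genes split into 1603 higher and 1730 lower, against 990 and 1966 on the deposited scale. Because each sample is a whole explant, fewer cells of a type and less RNA per cell cannot be told apart.

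**Figure D1:**
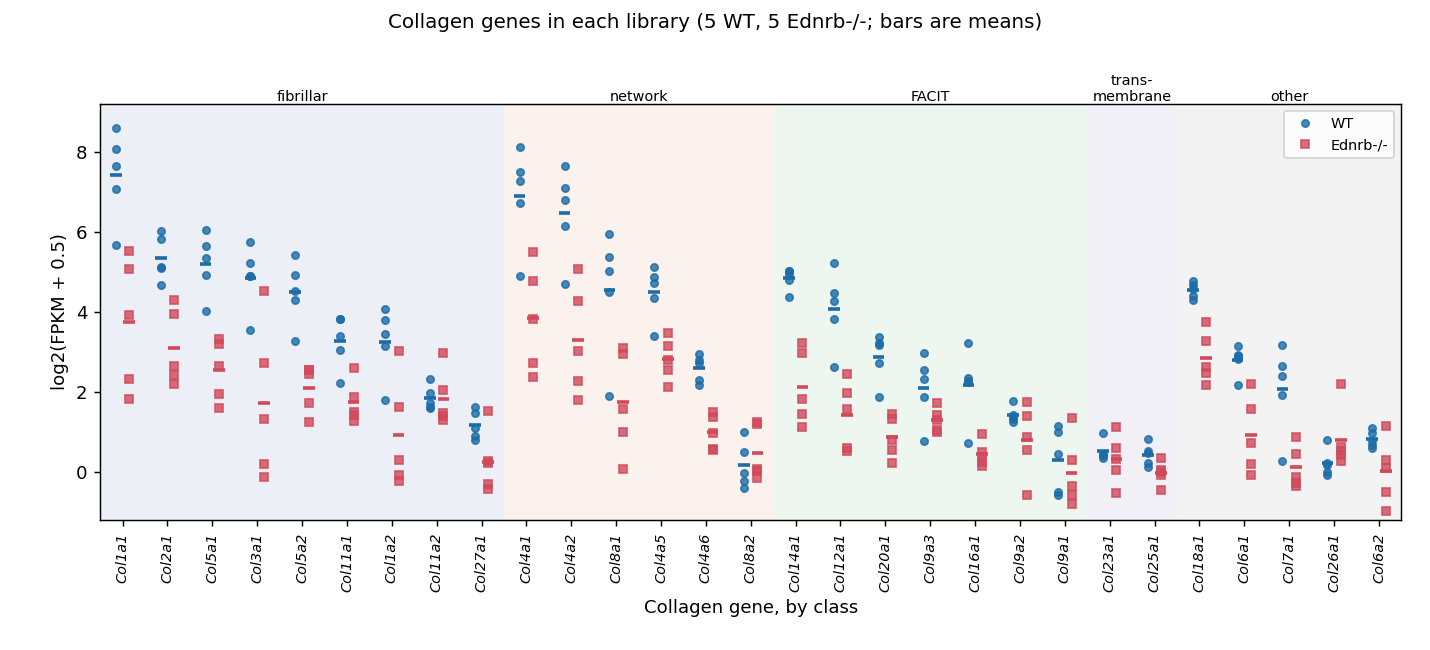
Level of each of the 29 tested collagen genes as log2(FPKM + 0.5) on the y axis, with genes grouped by class on the x axis, WT libraries as circles, Ednrb-/- libraries as squares and group means as bars. The largest differences of means are in fibrillar, network and FACIT genes, and the transmembrane genes lie low in both genotypes. In 9 genes the libraries of the genotypes do not overlap, and several abundant genes, such as Col4a1 and Col4a2, do overlap.

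Summed over all 44 genes, collagen measured 599.7, 299.3, 1339 (replicate 3), 874 and 910.3 FPKM in WT replicates 1 to 5, and 211, 89.7, 61.5, 245 and 50.8 FPKM in Ednrb-/- replicates 1 to 5. The groups did not overlap, although the lowest WT library, replicate 2, stood close to Ednrb-/- replicates 4 and 1. WT averaged 805 ± 387 FPKM and Ednrb-/- 132 ± 89.9 FPKM (SD over 5 libraries), or 0.279% ± 0.137 and 0.0455% ± 0.0321 of all FPKM. By class the WT mean was 6.66 times the Ednrb-/- mean for fibrillar genes, 6.93 times for network genes, 4.84 times for FACIT genes, 2.89 times for the other kinds and 1.26 times for transmembrane genes.

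The share of the most abundant chains varied between libraries. Col1a1, Col4a1 and Col4a2 together were 35.1% to 64.9% of summed collagen FPKM in WT libraries and 21.3% to 50.3% in Ednrb-/- libraries. Fibrillar genes held 44.7% to 51.8% of the sum in WT and 36.4% to 46.9% in Ednrb-/- libraries. The network share was 24.6% to 43.4% in WT and 26.9% to 40.7% in Ednrb-/- libraries, and the FACIT share 6.96% to 13.8% and 9.52% to 20.53%. In each of these classes, the fibrillar one included, the ranges overlap between genotypes. The transmembrane share did not overlap, at 0.188% to 0.757% in WT and 0.820% to 3.57% in Ednrb-/- libraries, against a smaller total in the latter.

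**Figure D2:**
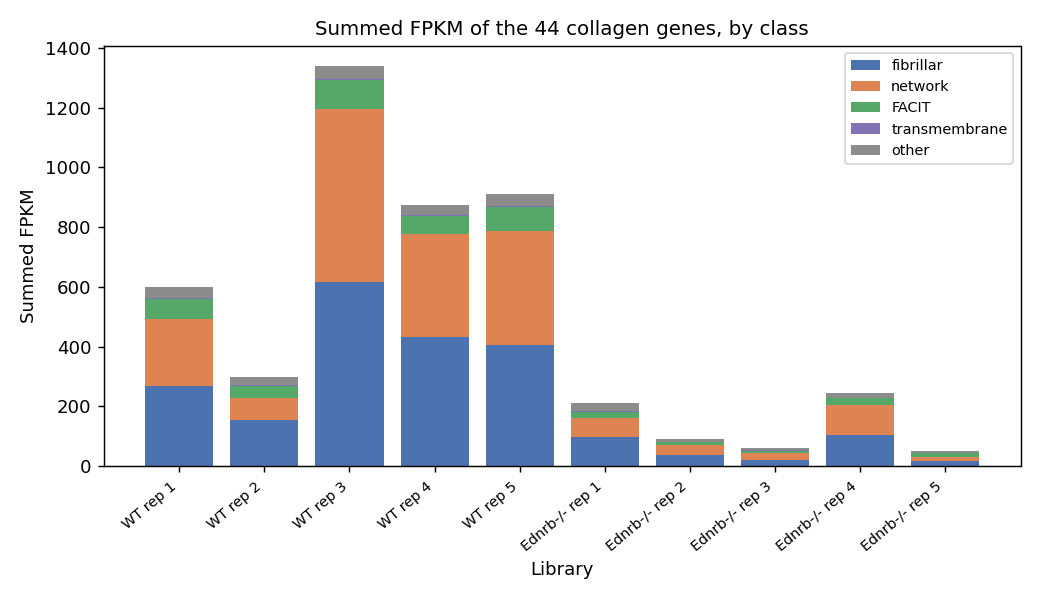
Summed FPKM of the 44 collagen genes (y axis) in each of the 10 libraries (x axis), stacked by class. WT bars run from 299.3 to 1339 FPKM and Ednrb-/- bars from 50.8 to 245 FPKM, and fibrillar and network genes fill most of every bar.

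Collagen level also varied widely among libraries of 1 genotype, and the same libraries were extreme for many members. Of the 19 collagens that fell, WT replicate 3 had the highest WT value for 15 and WT replicate 2 the lowest for 17. Among Ednrb-/- libraries, replicate 4 was highest for 13 and replicate 1 for the remaining 6, and replicate 5 was lowest for 15. Smooth muscle markers (11 genes, 9 tested, of which 9 fell, against 13.0% of all tested genes) were ordered in much the same way. Their summed level was 1341, 323, 2466, 2076 and 1497 FPKM in WT replicates 1 to 5 and 249, 163, 54.4, 278 and 44.8 FPKM in Ednrb-/- replicates 1 to 5. None of these markers was at 0 in every library. The part of smooth muscle content in the collagen differences was not tested.

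Among the fibrillar genes, Col1a1, the main chain of the collagen I of skin, bone and tendon, was the most abundant collagen in WT and had the largest fall of all. The gene (MGP_C57BL6NJ_G0019363) spans 100181204 to 100199590 of chromosome 11, plus strand, in the coordinates of the table, whose identifiers name the C57BL/6NJ strain assembly. Its level was 135, 50.4, 390.7, 271 and 201 FPKM in WT replicates 1 to 5 and 33.4, 14.8, 4.54, 45.3 and 3.07 FPKM in Ednrb-/- replicates 1 to 5. Every Ednrb-/- library was below every WT library, though WT replicate 2 exceeded Ednrb-/- replicate 4 by little. On the log2(FPKM + 0.5) scale the difference was -3.68 with a standard error of 0.75 (limma, adjusted p = 0.00708). Over the alternatives it ran from -4.29 with array weights to -3.20 without Ednrb-/- replicate 5, with a limma adjusted p of at most 0.0216.

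Col3a1, the chain of the collagen III of elastic tissues, fell with overlap. It held 29.3, 11.1, 53.0, 37.0 and 29.4 FPKM in WT replicates 1 to 5 and 22.4, 2.01, 0.645, 6.11 and 0.413 FPKM in Ednrb-/- replicates 1 to 5. Ednrb-/- replicate 1 lay inside the WT range and above WT replicate 2, and the other 4 were below all WT libraries. The log2 difference was -3.14 ± 0.79 (standard error; limma, adjusted p = 0.0178), and leaving out Ednrb-/- replicate 1 gave -3.83 (limma, adjusted p = 0.00379). Other omissions brought the call near the threshold. The difference was -2.92 without WT replicate 3 and -2.67 without Ednrb-/- replicate 5 (limma, adjusted p = 0.0488 and 0.0423).

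Col1a2, the partner chain of Col1a1, was of the same pattern and lay just inside the threshold. WT replicates 1 to 5 had 8.41, 3.00, 16.4, 13.4 and 10.4 FPKM of it and Ednrb-/- replicates 1 to 5 had 7.70, 0.723, 0.453, 2.58 and 0.355 FPKM. Again Ednrb-/- replicate 1 stood with the WT libraries. The log2 difference was -2.33 ± 0.63 (standard error; limma, adjusted p = 0.0239). Its adjusted p was 0.0632, 0.0605 and 0.0564 without WT replicates 3, 4 and 5, 0.0553, 0.0601 and 0.0590 without Ednrb-/- replicates 2, 3 and 5, and 0.0524 with no filter, so the call was lost in each. Ednrb-/- replicate 1 also held more of some fibroblast-like markers than the other Ednrb-/- libraries: Twist1 at 9.0 FPKM against 0 to 1.47, and Thy1 at 5.29 FPKM against 0.233 to 0.309. Over the whole list (10 genes, 6 tested, 5 of which fell and 1 rose) the sum was 37.2 to 124 FPKM in WT and 25.0 to 86.6 FPKM in Ednrb-/- libraries, and 60.5 FPKM in that replicate. Dcn, the small proteoglycan decorin and the member that rose, supplied most of the sum in Ednrb-/- replicates 2, 3 and 5, with 24.1, 74.0, 81.4, 7.16 and 34.3 FPKM in replicates 1 to 5. No marker of the list was at 0 in all libraries, and its part in these values was not tested.

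Collagen V, a minor partner in collagen I fibrils that limits their width, fell in both abundant chains. Col5a1 held 29.9, 15.8, 65.5, 39.9 and 49.8 FPKM in WT replicates 1 to 5 and 8.67, 5.74, 3.33, 9.55 and 2.52 FPKM in Ednrb-/- replicates 1 to 5, without overlap (log2 difference -2.66 ± 0.41, standard error; limma, adjusted p = 0.00313). Col5a2 ran from 9.15 to 42.6 FPKM in WT and from 1.88 to 5.34 FPKM in Ednrb-/- libraries, also without overlap (log2 difference -2.39). Col5a3, the least abundant collagen V chain, was below the filter, at 0.399 to 1.68 FPKM in WT and 0.112 to 0.352 FPKM in Ednrb-/- libraries. In a fit of all 28144 genes with any value above 0 it was lower by -1.13 ± 0.25 (standard error; limma, adjusted p = 0.0216).

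Cartilage collagens parted ways. Col2a1, the chain of the collagen II of cartilage and of the notochord sheath, held 34.4, 56.7, 25.1, 33.6 and 64.3 FPKM in WT replicates 1 to 5 and 14.9, 4.90, 5.82, 19.2 and 4.07 FPKM in Ednrb-/- replicates 1 to 5. The groups did not overlap, and the order of the WT libraries was unlike that of Col1a1, with replicates 5 and 2 highest and replicate 3 lowest. The log2 difference was -2.24 ± 0.42 (standard error; limma, adjusted p = 0.00520). Col11a1, a chain of the collagen XI that nucleates cartilage fibrils, fell from 9.89 ± 4.04 to 3.04 ± 1.48 FPKM (SD, n = 5 per genotype; limma, adjusted p = 0.00901). Col11a2, its partner, measured 2.56, 2.79, 3.42, 2.55 and 4.47 FPKM in WT and 2.27, 2.15, 1.96, 7.30 and 3.65 FPKM in Ednrb-/- replicates 1 to 5, with Ednrb-/- replicate 4 above all WT libraries. Its log2 difference was -0.01 ± 0.30 (standard error; limma, adjusted p = 0.992). Cartilage and bone markers (9 found of 10, 4 tested) fell in 3 genes, with sums of 28.4 to 53.6 FPKM in WT and 8.80 to 20.1 FPKM in Ednrb-/- libraries. The tested marker that did not pass was Sox9, whose mean went from 11.2 ± 4.33 to 9.81 ± 1.25 FPKM (SD, n = 5 per genotype). Sox9 had a log2 difference of -0.12 ± 0.21 (standard error, limma adjusted p = 0.746). Hapln1, a link protein of the hyaluronan matrix, fell from 26.5 ± 11.8 to 2.26 ± 2.66 FPKM (SD, n = 5 per genotype, limma adjusted p = 0.00408). The mature cartilage gene Matn1 was at or near 0 in all libraries.

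Of the remaining fibrillar genes, Col27a1 lay just outside the threshold. It held 1.36, 1.25, 2.28, 1.63 and 2.61 FPKM in WT and 0.706, 0.672, 0.247, 2.37 and 0.316 FPKM in Ednrb-/- replicates 1 to 5 (log2 difference -0.92 ± 0.35, standard error; limma, adjusted p = 0.0870). Ednrb-/- replicate 4 alone, at 2.37 FPKM, lay in the upper WT range. Without that library the adjusted p was 0.00766, and limma voom gave 0.0339. Col24a1 did not exceed 0.626 FPKM in any library and was not tested.

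**Figure D3:**
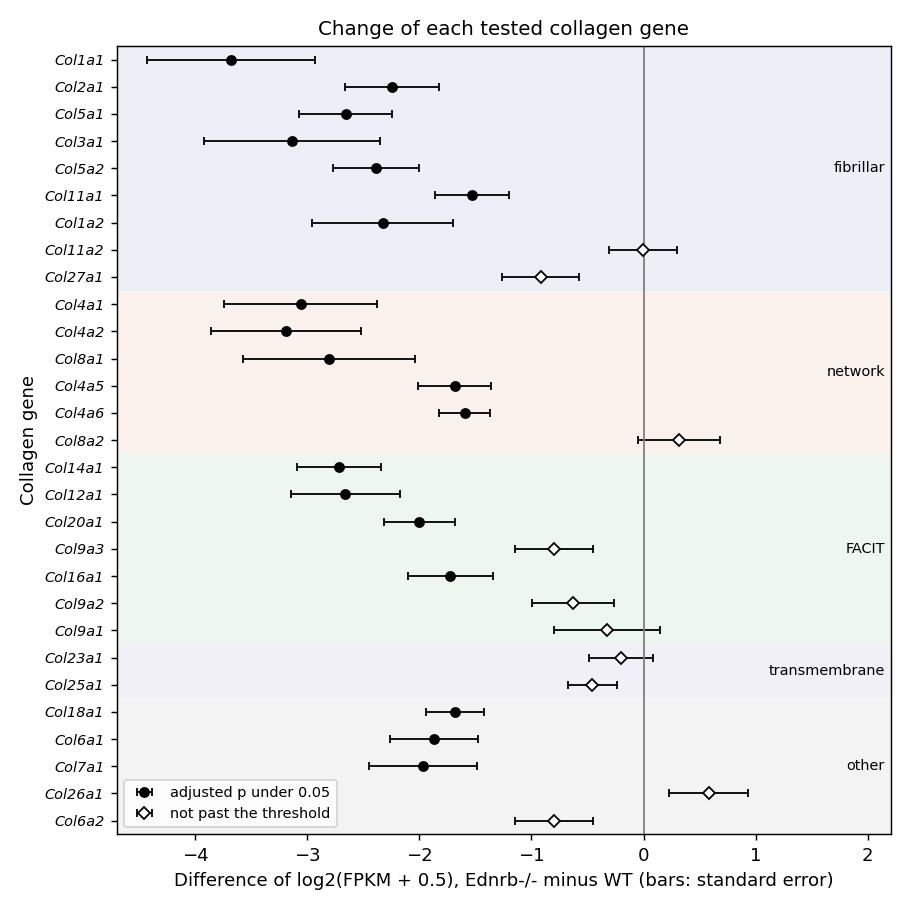
Difference of log2(FPKM + 0.5), Ednrb-/- minus WT, for each of the 29 tested collagen genes (y axis, by class), with standard errors from limma as bars. Filled circles are the 19 genes past an adjusted p of 0.05, all lower in Ednrb-/-, and open diamonds the 10 that did not pass, with only Col8a2 and Col26a1 on the positive side.

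In the network class the basement membrane chains Col4a1 and Col4a2, which join into the collagen IV found in every basement membrane, fell together. Col4a1 held 105, 29.2, 278, 154 and 179.5 FPKM in WT replicates 1 to 5 and 26.9, 13.8, 6.10, 44.9 and 4.71 FPKM in Ednrb-/- replicates 1 to 5. Col4a2 held 70.6, 25.5, 199.7, 112 and 137 FPKM in WT and 18.8, 7.67, 4.36, 33.1 and 3.01 FPKM in Ednrb-/- replicates 1 to 5. For both genes Ednrb-/- replicate 4 exceeded WT replicate 2 and the remaining libraries were apart by genotype. The log2 differences were -3.06 ± 0.68 and -3.19 ± 0.67 (standard errors; limma, adjusted p = 0.0104 and 0.00799). Of 9 markers of endothelium, which also makes collagen IV, 3 were tested and Kdr fell, at 0.945 to 9.51 FPKM in WT and 0.202 to 1.19 FPKM in Ednrb-/- libraries. Egfl7 and Esam, the other tested markers, did not pass (log2 differences 0.01 and -0.19; limma, adjusted p = 0.984 and 0.644). Like Col4a1 and most of the collagens that fell, Kdr was highest in WT replicate 3 and, among WT libraries, lowest in replicate 2. The list summed to 2.01 to 10.8 FPKM in WT and 1.34 to 2.47 FPKM in Ednrb-/- libraries, and Pecam1 and Cdh5 did not exceed 0.330 FPKM in any library. The part of endothelial content in the collagen IV differences was not tested.

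The 6 collagen IV genes form 3 pairs that start next to each other and run apart. On chromosome 8 the table places Col4a1 at 8745072 to 8867068 (minus strand) and Col4a2 at 8867047 to 9005470 (plus strand), so that the models overlap by 22 bases at their starts. Col4a6 (X, 142658482 to 142988203, minus strand) and Col4a5 (X, 142989512 to 143216167, plus strand) are separated by 1308 bases, and Col4a4 and Col4a3 on chromosome 1 by 71 bases. The first and second pairs fell in both members. Col4a5 went from 23.9 ± 9.26 to 6.91 ± 2.59 FPKM, and Col4a6 from 5.66 ± 1.36 to 1.57 ± 0.622 FPKM (SD, n = 5 per genotype; limma, adjusted p = 0.00589 and 0.00276). Col4a6 had no overlap, with 4.44, 4.04, 7.23, 6.44 and 6.11 FPKM in WT and 2.08, 1.00, 1.47, 2.33 and 0.959 FPKM in Ednrb-/- replicates 1 to 5. Col4a3 and Col4a4, the chains of the kidney glomerulus and lung, stayed at or under 0.134 FPKM in all libraries.

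Col8a1, a short network chain of vessels and of the cornea, held 22.2, 3.21, 61.0, 41.0 and 31.8 FPKM in WT replicates 1 to 5 and 7.18, 2.48, 1.51, 8.10 and 0.553 FPKM in Ednrb-/- replicates 1 to 5. WT replicate 2 lay within the Ednrb-/- range, and the other 4 WT libraries were above it. The log2 difference was -2.81 ± 0.77 (standard error; limma, adjusted p = 0.0261), -3.47 without that library (adjusted p = 0.00243) and -3.45 with array weights. The call was lost without WT replicate 3, 4 or 5 (adjusted p = 0.0680, 0.0661 and 0.0643), without Ednrb-/- replicate 2, 3 or 5 (0.0534, 0.0633 and 0.0619) and with no filter (0.0565). Its partner Col8a2 went the other way without passing, at 0.695 ± 0.505 FPKM in WT and 1.03 ± 0.737 in Ednrb-/- libraries (SD, n = 5 per genotype; limma, adjusted p = 0.593). Col10a1, the marker of hypertrophic cartilage, did not exceed 0.102 FPKM.

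Sequences before the starts of the Col4a5 and Col4a6 pair are shown because these neighbours fell together from starts facing away from each other. Those of Col5a1 and Col8a1 are shown as examples of a fibrillar and a network gene that fell. They were not the most abundant of their classes. No window was found for Col1a1 or Col2a1, and Col4a1 and Col4a2 are not shown. Each run covers the 200 bases from 250 to 51 before the RefSeq start on GRCm38.p6, 5′ to 3′ on the strand of the gene, at chrX:141475169-141475368 (plus), chrX:141474127-141474326 (minus), chr2:27886175-27886374 (plus) and chr16:57754788-57754987 (minus). Capitals mark a GC box (GGGCGG or CCGCCC on the other strand), a CCAAT box (CCAAT or ATTGG) or a TATA box (TATAAA or TTTATA).
Col4a5: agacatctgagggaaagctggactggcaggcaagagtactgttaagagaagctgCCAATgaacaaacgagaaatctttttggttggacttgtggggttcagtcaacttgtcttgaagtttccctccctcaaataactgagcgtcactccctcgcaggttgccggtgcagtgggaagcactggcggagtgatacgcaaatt
Col4a6: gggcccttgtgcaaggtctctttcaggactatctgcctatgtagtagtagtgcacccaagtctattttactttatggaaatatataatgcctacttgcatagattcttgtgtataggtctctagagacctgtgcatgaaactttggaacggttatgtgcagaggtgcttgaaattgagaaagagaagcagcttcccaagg
Col5a1: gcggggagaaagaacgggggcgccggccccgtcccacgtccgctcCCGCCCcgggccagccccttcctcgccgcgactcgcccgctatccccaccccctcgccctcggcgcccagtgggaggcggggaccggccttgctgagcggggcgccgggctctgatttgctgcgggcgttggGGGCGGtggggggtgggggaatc
Col8a1: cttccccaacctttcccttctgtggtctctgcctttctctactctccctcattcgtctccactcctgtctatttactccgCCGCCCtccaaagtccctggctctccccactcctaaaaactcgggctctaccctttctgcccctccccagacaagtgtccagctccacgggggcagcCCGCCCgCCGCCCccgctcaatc
The Col5a1 window held 2 GC boxes and that of Col8a1 3, while Col4a5 had 1 CCAAT box and Col4a6 none of the motifs. Windows were found for 35 of the 44 collagens, 38 in number. A GC box was in 47.4% of these and 24.6% of all 32851 windows of that length, a CCAAT box in 26.3% and 28.4%, and a TATA box in 10.5% and 9.14%. These are matches of letters only.

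Among the FACIT genes Col12a1, Col14a1, Col16a1 and Col20a1 fell, and the 3 collagen IX genes did not pass. Col14a1, a chain of dense connective tissue, held 32.3, 20.3, 32.2, 27.5 and 30.3 FPKM in WT replicates 1 to 5 and 8.91, 1.69, 2.21, 7.33 and 3.06 FPKM in Ednrb-/- replicates 1 to 5. The WT libraries were close together and the groups far apart (log2 difference -2.72 ± 0.37, standard error; limma, adjusted p = 0.00276). Col12a1, of tendon and other stretched tissue, held 13.6, 5.68, 36.9, 18.8 and 21.7 FPKM in WT and 3.43, 2.47, 0.950, 4.93 and 1.00 FPKM in Ednrb-/- replicates 1 to 5. WT replicate 2 was only just above Ednrb-/- replicate 4 (log2 difference -2.66 ± 0.49, standard error; limma, adjusted p = 0.00485).

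Col20a1, a sparsely studied member, held 8.84, 8.57, 6.12, 3.15 and 9.83 FPKM in WT and 2.23, 0.667, 1.25, 2.01 and 0.968 FPKM in Ednrb-/- replicates 1 to 5, without overlap (log2 difference -2.00 ± 0.32, standard error; limma, adjusted p = 0.00329). Unlike most members it was not lowest in WT replicate 2, which had 8.57 FPKM, but in WT replicate 4. Col16a1 fell from 4.64 ± 2.76 to 0.886 ± 0.333 FPKM (SD, n = 5 per genotype; limma, adjusted p = 0.00966), with WT replicate 2, at 1.15 FPKM, inside the Ednrb-/- range.

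The collagen IX genes Col9a1, Col9a2 and Col9a3, whose chains bind collagen II fibrils in cartilage, had log2 differences of -0.33, -0.63 and -0.80 (limma, adjusted p = 0.679, 0.262 and 0.134). Col9a3 passed without WT replicate 2 (adjusted p = 0.00685) and with array weights (0.0469). Col9a1 was at 0.874, 1.5, 0.176, 0.205 and 1.72 FPKM in WT and 0.728, 0.288, 0.172, 2.04 and 0.0696 FPKM in Ednrb-/- replicates 1 to 5. It was thus high in WT replicates 2 and 5 and in Ednrb-/- replicate 4, the same 3 libraries in which the cartilage proteoglycan gene Acan exceeded 1 FPKM, at 1.69, 4.57 and 1.34 FPKM. Col19a1 and Col22a1 were below the filter, the latter at 0.779 FPKM or less. Col19a1 held 0.225 to 1.96 FPKM in WT and 0 to 0.402 FPKM in Ednrb-/- libraries, with an adjusted p of 0.0521 in the limma fit without a filter.

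Transmembrane collagens were scarce in both genotypes and none passed. Col25a1, which developing muscle needs for motor innervation, had 0.935, 0.589, 1.26, 0.661 and 0.886 FPKM in WT and 0.457, 0.782, 0.226, 0.495 and 0.532 FPKM in Ednrb-/- replicates 1 to 5. Most Ednrb-/- libraries were lower, but replicate 2 was inside the WT range (log2 difference -0.46 ± 0.22, standard error; limma, adjusted p = 0.168). Col23a1 had 0.857, 1.45, 0.843, 0.778 and 0.840 FPKM in WT and 1.69, 0.201, 0.752, 1.01 and 0.543 FPKM in Ednrb-/- replicates 1 to 5, with the highest and the lowest value both in Ednrb-/- libraries (limma, adjusted p = 0.673). Col13a1, a muscle synapse component, held 0.488, 0.225, 0.331, 0.252 and 0.402 FPKM in WT and 0.208, 0.233, 0.273, 0.454 and 0.715 FPKM in Ednrb-/- replicates 1 to 5, and was not tested. The groups overlapped, with Ednrb-/- replicate 5 highest. Col17a1, the hemidesmosome collagen of skin, held at most 0.123 FPKM. These values rest on few reads, 54 to 259 per library for Col25a1 and 15 to 192 for Col23a1. The surface ectoderm markers (7 found of 8, 2 tested) fell in Krt8 and Krt18 and summed to 12.2 to 44.3 FPKM in WT and 0.30 to 11.4 FPKM in Ednrb-/- libraries, while Trp63, the factor of stratified epithelium, did not exceed 0.0795 FPKM.

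Outside these classes, Col18a1, a basement membrane proteoglycan and the source of endostatin, fell from a tight WT range. It held 23.2, 19.3, 24.9, 20.8 and 26.9 FPKM in WT replicates 1 to 5 and 12.9, 5.08, 5.70, 9.15 and 4.04 FPKM in Ednrb-/- replicates 1 to 5, without overlap (log2 difference -1.68 ± 0.26, standard error; limma, adjusted p = 0.00310). Col15a1, the other multiplexin, held 0.0809 to 0.657 FPKM and was not tested. The Col18a1 model shares 8995 bases of span with Slc19a1 on the opposite strand, and no source used here says whether counting used strand. Col7a1, which anchors the epidermis to the dermis, had 4.81, 0.704, 8.51, 5.78 and 3.31 FPKM in WT and 0.864, 0.291, 0.425, 1.33 and 0.326 FPKM in Ednrb-/- replicates 1 to 5. WT replicate 2 lay among the Ednrb-/- libraries (log2 difference -1.97 ± 0.48, standard error; limma, adjusted p = 0.0152; -2.66 by limma voom).

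Collagen VI, the beaded filament collagen around cells of muscle and nerve, was low and uneven. Col6a1 held 7.0, 3.98, 8.33, 6.63 and 7.15 FPKM in WT and 4.06, 0.648, 1.16, 2.48 and 0.456 FPKM in Ednrb-/- replicates 1 to 5, with Ednrb-/- replicate 1 just above WT replicate 2 (log2 difference -1.87 ± 0.39, standard error; limma, adjusted p = 0.00818). Col6a2 had 1.20, 1.01, 1.66, 1.45 and 1.09 FPKM in WT and 1.72, 0.581, 0.00656, 0.738 and 0.212 FPKM in Ednrb-/- replicates 1 to 5. Ednrb-/- replicate 1 was the highest of all 10 libraries and the other 4 were below every WT library. The log2 difference was -0.80 ± 0.35 (standard error; limma, adjusted p = 0.132; 0.0252 without Ednrb-/- replicate 1), -1.42 with a pseudocount of 0.1 and -2.23 by limma voom. With that pseudocount and by limma voom Col6a2 did not pass either, and its value in Ednrb-/- replicate 3 rests on 1 read. Col6a3 was below the filter in most libraries and peaked in Ednrb-/- replicate 1, at 1.43 FPKM, followed by Ednrb-/- replicate 4 at 0.950 FPKM. Col6a4, Col6a5 and Col6a6 did not exceed 0.106 FPKM, and Col28a1 did not exceed 0.363 FPKM.

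Col26a1 had the highest log2 difference of the tested members, 0.58 ± 0.35 (standard error; limma, adjusted p = 0.281). It held 0.661, 1.25, 0.456, 0.507 and 0.632 FPKM in WT and 4.10, 0.940, 0.831, 0.707 and 1.05 FPKM in Ednrb-/- replicates 1 to 5. Ednrb-/- replicate 1 stood alone, and the other 4 lay within the WT range.

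Partner chains that share a trimer or a start region were compared within each library by the log2 ratio of (FPKM + 0.5), for 9 pairs in which both chains were tested, with an exact two-sided permutation test over the 5 against 5 libraries and adjustment over the 9 pairs. Col4a1 over Col4a2 was nearly constant, at a log2 ratio of 0.42 ± 0.14 in WT and 0.55 ± 0.15 in Ednrb-/- libraries (SD, n = 5 each; exact permutation p = 0.214, adjusted 0.321). Col4a5 over Col4a6 was 1.91 ± 0.39 and 1.82 ± 0.27 (exact permutation p = 0.714, adjusted 0.794), and Col5a1 over Col5a2 was 0.71 ± 0.09 and 0.44 ± 0.27 (exact permutation p = 0.111, adjusted 0.200). The mean ratios of these 3 pairs moved by 0.13, -0.09 and -0.27 log2 units, while the smallest fall among their 6 chains, that of Col4a6, was -1.60. A p above the threshold does not show that the ratios were equal.

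Col11a1 over Col11a2 was lower in every Ednrb-/- library, at 1.42 ± 0.54 in WT and -0.10 ± 0.47 in Ednrb-/- libraries (SD, n = 5 each; exact permutation p = 0.00794, the smallest that 5 against 5 allow, adjusted 0.0476). Col1a1 over Col1a2 was 4.16 ± 0.27 and 2.81 ± 0.89, and Col6a1 over Col6a2 was 1.98 ± 0.27 and 0.91 ± 0.65 (each exact permutation p = 0.0159, adjusted 0.0476). By limma voom, which adds no 0.5 FPKM, the log2 differences of Col6a1 and Col6a2 were both -2.23, so the Col6a1 to Col6a2 shift depends on the pseudocount. The Col6a2 value in Ednrb-/- replicate 3 rests on 1 read. Those of Col1a1 and Col1a2 by limma voom were -3.75 and -2.84. With a pseudocount of 0.1 the Col1a1 to Col1a2 difference shrank from -1.35 to -0.99 and the Col6a1 to Col6a2 difference from -1.07 to -0.79, while that of Col11a1 to Col11a2 went from -1.52 to -1.64. Of the 9 pairs 0 then passed (2 at an unadjusted p under 0.05). A lone pair at the smallest exact permutation p has an adjusted p of 0.0714 over 9 pairs and cannot pass, and that is the value Col11a1 to Col11a2 took there. It took the same value without any 1 of the 5 WT libraries or without Ednrb-/- replicate 2, where 0 pairs passed, and its difference stayed between -1.35 and -1.75 whichever library was left out. Col8a1 over Col8a2 differed by -3.12 (exact permutation p = 0.0397, adjusted 0.0893), and both collagen IX pairs overlapped widely.

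**Figure D4:**
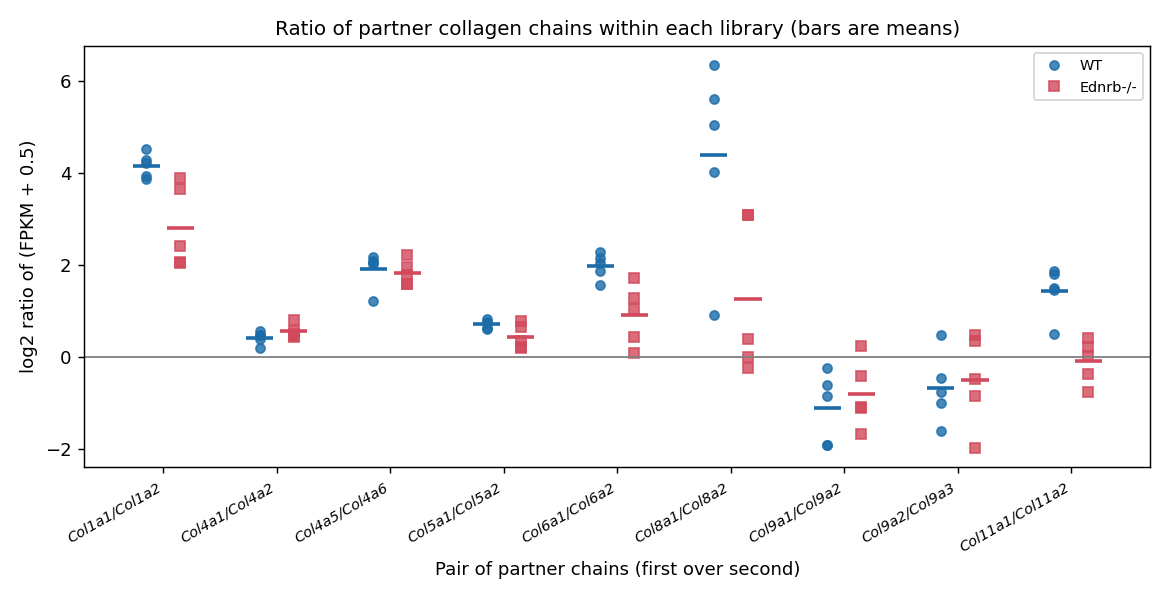
The log2 ratio of (FPKM + 0.5) between partner chains (y axis) for 9 pairs (x axis), with WT libraries as circles, Ednrb-/- libraries as squares and group means as bars. For Col4a1/Col4a2, Col4a5/Col4a6 and Col5a1/Col5a2 the group means lie close together, and Col11a1/Col11a2 separates without overlap.

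Levels of different chains carry the length by which they were divided. For Col1a2 the table uses a model of 12427 bases, against 5348 bases in its longest coding transcript of GENCODE M21, and the corresponding ratio of lengths was above 1.5 for 7 of the 29 tested collagens. On transcript length the WT mean of Col1a2 would be 24.0 FPKM in place of 10.3, and that of Col1a1 231 in place of 209.5. For Col1a2 a rescaling would also act like a smaller pseudocount, and with a pseudocount of 0.1 its log2 difference was -2.76 in place of -2.33 (limma, adjusted p = 0.0265).

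Genes that fold, process or bind collagen were counted in the same fit, in which 13.0% of all tested genes fell and 6.53% rose. Of 17 folding and assembly genes found and tested of 19 listed, 11 fell and 0 rose (limma), with a median log2 difference of -0.75. Serpinh1, the collagen chaperone HSP47, went from 336 ± 113 to 75.4 ± 26.3 FPKM, and Crtap, a part of the prolyl 3-hydroxylation complex, from 33.7 ± 11.6 to 5.18 ± 3.37 FPKM (SD, n = 5 each). The 6 that did not pass were P4ha1, P4ha3, Plod2, P3h3, Colgalt2 and Ppib, with log2 differences from -0.63 for Plod2 to 0.36 for P4ha3. Of 13 processing and crosslinking genes 11 were tested and 8 fell, with a median of -1.66, among them Lox and Loxl1 to Loxl4, the lysyl oxidases that crosslink fibrils. Tll2, Adamts2 and Adamts3 did not pass, with log2 differences of -0.35, 0.44 and -0.78.

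Of 11 collagen receptors 6 were tested, 3 fell and 0 rose (limma). Itgb1, the shared beta chain of the collagen-binding integrins, had 405, 122, 731, 584 and 464 FPKM in WT and 109, 86.9, 58.6, 167 and 48.4 FPKM in Ednrb-/- replicates 1 to 5. As with collagen IV, WT replicate 2 lay below Ednrb-/- replicate 4 (log2 difference -2.21; limma, adjusted p = 0.00818). Itga1, the alpha chain of a receptor for collagen IV, fell by 1.61 and Mrc2, the endocytic collagen receptor, by 1.20 on the log2 scale (limma, adjusted p = 0.0106 and 0.00579). Adgrg1, a collagen III receptor of neural progenitors, averaged 81.6 ± 33.4 FPKM in WT and 102 ± 10.1 in Ednrb-/- libraries and did not pass (SD, n = 5 per genotype; limma, adjusted p = 0.201).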

How the data were processed

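RNA of 5 WT and 5 Ednrb-/- explant cultures was sequenced. Tools named in the submitters' processing notes are fastp, HISAT2 2.0.5, featureCounts 1.5.0-p3 with the build mm10, and no settings. The authors deposited FPKM, 1 column per library, matched here by genotype and replicate number, with 0 further columns of values per sample. Gene identifiers are those of the C57BL/6NJ assembly, and coordinates were printed as deposited and not converted. Multiplying FPKM by gene length and dividing by a step fitted for each library gave whole reads for 100% of values (tolerance 0.01 read). The fit of the step started from the smallest product above 0 in the library, taken as 1 read. No source used here gives filters, pooling or strand use.

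Genotypes were compared with limma 3.58.1 (R 4.3.3) on log2(FPKM + 0.5), with a prior variance following the mean, no covariate and Benjamini-Hochberg adjustment over the 15156 genes with at least 0.5 FPKM in at least 5 libraries. A fold change on this scale understates that of low genes. The fit was first run on simulated reads, drawn independently for each gene. That simulation cannot show how the fit behaves where the same libraries are extreme for many genes, as here. Chain ratios used an exact permutation over libraries. Alternatives were other pseudocounts, filters and scalings, no trend, array weights, limma voom on the recovered reads (1983 genes lower and 985 higher), a replicate block and leaving out each library. Members, classes and lists were chosen with earlier results of these data known. Values per library are printed for the 3 most abundant members and the 2 largest falls of each class and for members next to the threshold, and for further members where libraries differ. These others, and the list genes named beside receptors, were chosen after their values were seen. Counts of markers called stand beside 13.0% of all tested genes lower and 6.53% higher. Marker lists covered smooth muscle, fibroblast-like mesenchyme, cartilage and bone, endothelium, surface ectoderm, neuron, motor neuron, neural progenitor, crest and glia, melanocyte and macrophage. Of those not described in the results, motor neuron markers summed to 24.5 to 32.2 FPKM in WT and 28.7 to 41.7 FPKM in Ednrb-/- libraries (7 tested, 1 higher), neural progenitor markers to 178 to 276 and 194 to 226 (6 tested, 1 lower), melanocyte markers to 50.2 to 184 and 2.74 to 10.4 (5 tested, 5 lower) and macrophage markers to 0.804 to 2.32 and 0.174 to 2.02 (1 tested, with C1qa at 0 throughout). The p-values measure the spread between cultures that the labels call biological replicates. Within a genotype, pairs of libraries correlated at 0.925 to 0.979, and each library counted once.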

Additional observations from a re-analysis of the deposited data

Results flagged for a closer look

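Each of the 29 tested collagens was screened in both genotypes for a library set apart from the other 4, on the log2(FPKM + 0.5) scale. The gap to the nearest library had to exceed 0.71 of the whole range. Of 58 groups screened 2 met this, and chance alone flags about 1 group in 20. Col26a1 in Ednrb-/- replicate 1, at 4.10 FPKM, had a gap of 0.811 of the range. Col23a1 in WT replicate 2, at 1.45 FPKM, had a gap of 0.859 of the range.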

How the results depend on the processing

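The count of collagens that fell stayed between 17 and 21 in every alternative run, and the count that rose was 0 in each. The count of all genes that rose was less stable: 990 in the reported fit, 659 with no filter, 1603 under quantile normalization, 1684 with array weights, and 513 to 1150 when single libraries were left out, with 513 to 586 without WT replicate 3, 4 or 5 or Ednrb-/- replicate 3 or 5. Chain ratios past the threshold numbered 3 in the reported test, 0 with a pseudocount of 0.1, and 0 to 3 when single libraries were left out. A lone pair cannot go below an adjusted p of 0.0714, so these losses say nothing on the stability of Col11a1 to Col11a2, whose difference ran from -1.35 to -1.75. The cause of the other changes was not tested. Replicate numbers pair nothing in the labels, and same-numbered libraries had correlations of deviations between -0.163 and 0.153, with 1 of 5 WT libraries best matched by its own number. With the replicate block 1458 genes fell, 419 rose, and 19 collagens fell. Some tested members rest on few reads, such as Col9a2, whose lowest library holds 7. Whether depth limited the calls was not tested.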
